A study of Mus musculus with 24 samples.

Results

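Of the 29007 peaks listed in a STAU2 RNA immunoprecipitation (RIP) of mouse embryonic cortex, 316 lay on exons of long noncoding RNA (lncRNA) genes and are described here. A peak was taken when it shared at least 1 bp with an exon, on its own strand, of a gene that GENCODE types as lincRNA, antisense, processed_transcript, sense_intronic, sense_overlapping, bidirectional_promoter_lncRNA or lncRNA, and touched no protein-coding exon of that strand. They fell in 158 of 10150 annotated lncRNA genes (1.56%). At E11.5 they were 73 of 6530 listed peaks, at E13.5 76 of 5871, at E15.5 100 of 10265, and 67 of 6341 on the last day, E17.5. Lists of values for the 4 days follow this order. Another 47 peaks that touched both an lncRNA exon and a protein-coding exon were left out by the rule.

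Each peak was counted for the 1 gene whose exons shared most bases with it. The study had 24 libraries in 8 groups of 3, a STAU2 RIP and an input at each of 4 embryonic days. Every biological replicate started from the cortices of a whole litter, pooled, with no genotype or treatment named. The RIP used a mouse monoclonal antibody against STAU2 with input as the reference, DNase treatment of the RNA and a library kit that keeps the strand. The control RIP against the T7 tag was read by qPCR and the RIPs from sorted TBR2-positive cells were not analysed here. The authors deposited 1 list per day and strand, with no value for any single replicate. The spread between litters and the read depth are therefore unknown, no test between days was possible, and every interval covers the counting of peaks or genes alone. The lists give no expression level, so a gene without a peak may be unbound, unexpressed or below the limit of detection. The direction of the authors' test is not stated either, so a listed peak need not mean binding. In bulk tissue fewer cells of a type and less RNA per cell cannot be told apart. Of all candidate regions, lncRNA or not, 21.9%, 19.3%, 37.3% and 36.4% were listed on the 4 days. Among marker genes, 8 of 10 cortical genes had a coding exon peak on some day, as did 3 of 6 interneuron genes, 6 of 6 vessel and meninges genes, 1 of 5 microglia genes and 0 of 5 blood genes, where 29.5% of all annotated protein-coding genes had one.

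LncRNAs are transcripts without a known protein product, many of which are spliced and polyadenylated like messenger RNAs. Some act in the nucleus at imprinted loci or on the inactive X chromosome, some are precursors from which microRNAs or small nucleolar RNAs (snoRNAs) are cut, and others are exported to the cytoplasm. STAU2 is a protein that binds double-stranded RNA and takes part in RNA transport and asymmetric inheritance in neurons and neural progenitors. Its recognition of paired RNA is why predicted base pairing is given with the sequences.

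The sequences of the best-ranked peaks that lie in 1 exon and span at most 300 bp show which stretches of lncRNA exons were listed. They belong to the leading lncRNA genes of each day, and the capitals mark bases that RNAfold paired in the minimum free energy structure. All are in GRCm38, read 5′ to 3′ from the GENCODE transcript.
Mir17hg, E11.5, chr14:115045351-115045400, plus strand: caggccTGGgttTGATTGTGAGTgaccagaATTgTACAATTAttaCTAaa
C130071C03Rik, E11.5, chr13:83740254-83740369, plus strand: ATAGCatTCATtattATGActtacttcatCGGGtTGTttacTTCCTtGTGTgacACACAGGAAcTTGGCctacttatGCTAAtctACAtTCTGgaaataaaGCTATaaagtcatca
Gm3764, E13.5, chr3:88228588-88228684, plus strand: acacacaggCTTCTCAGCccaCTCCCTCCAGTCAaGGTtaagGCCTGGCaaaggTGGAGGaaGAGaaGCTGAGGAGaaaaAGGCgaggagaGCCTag
Gm42659, E13.5, chr3:104837577-104837725, minus strand: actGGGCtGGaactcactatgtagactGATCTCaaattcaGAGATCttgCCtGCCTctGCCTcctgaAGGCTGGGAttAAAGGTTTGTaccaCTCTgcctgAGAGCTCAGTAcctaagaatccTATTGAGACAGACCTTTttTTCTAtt
C130071C03Rik, E15.5, chr13:83740516-83740693, plus strand: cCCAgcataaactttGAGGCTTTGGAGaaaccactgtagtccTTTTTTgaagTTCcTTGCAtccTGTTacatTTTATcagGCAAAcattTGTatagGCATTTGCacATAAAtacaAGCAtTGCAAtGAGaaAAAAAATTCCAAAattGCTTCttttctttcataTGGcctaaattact
Rian, E15.5, chr12:109654294-109654430, plus strand: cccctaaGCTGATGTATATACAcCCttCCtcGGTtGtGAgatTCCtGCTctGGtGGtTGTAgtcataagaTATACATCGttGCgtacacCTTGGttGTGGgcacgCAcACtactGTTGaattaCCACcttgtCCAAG
Gm16973, E17.5, chr14:56697342-56697389, minus strand: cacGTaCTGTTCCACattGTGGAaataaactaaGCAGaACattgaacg
2900076A07Rik, E17.5, chr7:81531235-81531287, plus strand: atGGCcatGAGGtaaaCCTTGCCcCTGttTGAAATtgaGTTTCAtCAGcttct

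Between 22 of 48 bases (45.8%, Gm16973) and 32 of 53 bases (60.4%, 2900076A07Rik) were paired in these predicted structures. Among folded peaks at positions listed on several days, the share went from 28.9% (Gm3764, E11.5) to 61.6% (Snhg12, E11.5). No such share is given for coding exon peaks, so whether these values are high or low is not known. The Gm3764 peak folded most tightly of them per base, at -36.5 kcal/mol over 97 bases. Both C130071C03Rik peaks were AU-rich, with GC contents of 35.3% (E11.5) and 34.3% (E15.5).

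A further set shows positions that were listed on more than 1 day, with the bases also covered by an lncRNA exon peak of another day in capitals.
Gm3764, E17.5, chr3:88227450-88227614, plus strand: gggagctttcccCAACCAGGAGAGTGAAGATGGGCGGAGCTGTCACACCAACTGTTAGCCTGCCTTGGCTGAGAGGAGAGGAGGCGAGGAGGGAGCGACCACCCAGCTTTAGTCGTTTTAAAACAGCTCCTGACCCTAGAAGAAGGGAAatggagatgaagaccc
C130071C03Rik, E11.5, chr13:83740863-83740910, plus strand: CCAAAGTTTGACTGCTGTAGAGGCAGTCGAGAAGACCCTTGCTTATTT
Peg13, E13.5, chr15:72805854-72806150, minus strand: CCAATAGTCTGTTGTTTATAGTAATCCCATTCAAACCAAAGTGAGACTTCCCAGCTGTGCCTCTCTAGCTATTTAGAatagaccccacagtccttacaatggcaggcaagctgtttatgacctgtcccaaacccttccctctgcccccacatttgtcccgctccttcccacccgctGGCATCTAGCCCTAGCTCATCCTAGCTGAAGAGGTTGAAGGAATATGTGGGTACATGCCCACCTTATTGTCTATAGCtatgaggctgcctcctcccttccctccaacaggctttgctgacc
A730063M14Rik, E15.5, chr10:127070495-127070584, plus strand: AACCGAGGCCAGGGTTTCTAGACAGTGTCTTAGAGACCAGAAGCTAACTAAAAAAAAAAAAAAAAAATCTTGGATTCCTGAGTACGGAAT
Pantr1, E13.5, chr1:42648303-42648428, minus strand: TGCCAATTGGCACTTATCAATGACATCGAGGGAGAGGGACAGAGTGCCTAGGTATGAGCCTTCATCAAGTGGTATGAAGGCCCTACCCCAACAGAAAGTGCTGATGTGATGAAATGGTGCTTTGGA
Snhg12, E11.5, chr4:132310189-132310477, plus strand: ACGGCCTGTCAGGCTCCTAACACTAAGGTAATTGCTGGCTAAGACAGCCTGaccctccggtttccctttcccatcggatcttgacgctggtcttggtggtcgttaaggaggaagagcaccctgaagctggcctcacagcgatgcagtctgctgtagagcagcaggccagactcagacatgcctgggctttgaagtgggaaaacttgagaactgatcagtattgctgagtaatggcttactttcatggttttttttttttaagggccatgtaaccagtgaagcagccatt

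In the Peg13 peak, 154 of 297 bases were shared with E15.5 or E17.5, in a pair of blocks. The whole of the A730063M14Rik peak (90 bases), the Pantr1 peak (126 bases) and the 48-base C130071C03Rik peak lay under a peak of another day, for Pantr1 one of 15360 bp. In Gm3764, 137 of 165 bases were covered at E13.5 as well, and in Snhg12 the covered part was 51 of 289 bases. The Snhg12 peak also spans the snoRNA gene Snora61 (chr4:132310240-132310369), which begins just past those 51 bases.

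LncRNA exon peaks made up 1.12% of all listed peaks at E11.5 (95% interval 0.877% to 1.40%) and 1.29% at E13.5 (1.02% to 1.62%). On the later days they were 0.974% (0.793% to 1.18%) and 1.06% (0.820% to 1.34%). These intervals overlapped on all 4 days. Counted against peaks on lncRNA or protein-coding exons only, the share was 2.22% (1.74% to 2.78%) and 2.03% (1.61% to 2.54%) on the first days, then 1.33% (1.08% to 1.61%) and 1.43% (1.11% to 1.82%). The E11.5 interval lay above that of E15.5, and it overlapped that of E17.5. Protein-coding exon peaks numbered 3216, 3659, 7433 and 4604, so the lower share on the later days came with more coding peaks. With 1 peak per gene the E15.5 share was 1.71% (1.35% to 2.14%) and its interval overlapped that of E11.5 (2.43%, 1.80% to 3.20%).

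**Figure D1:**
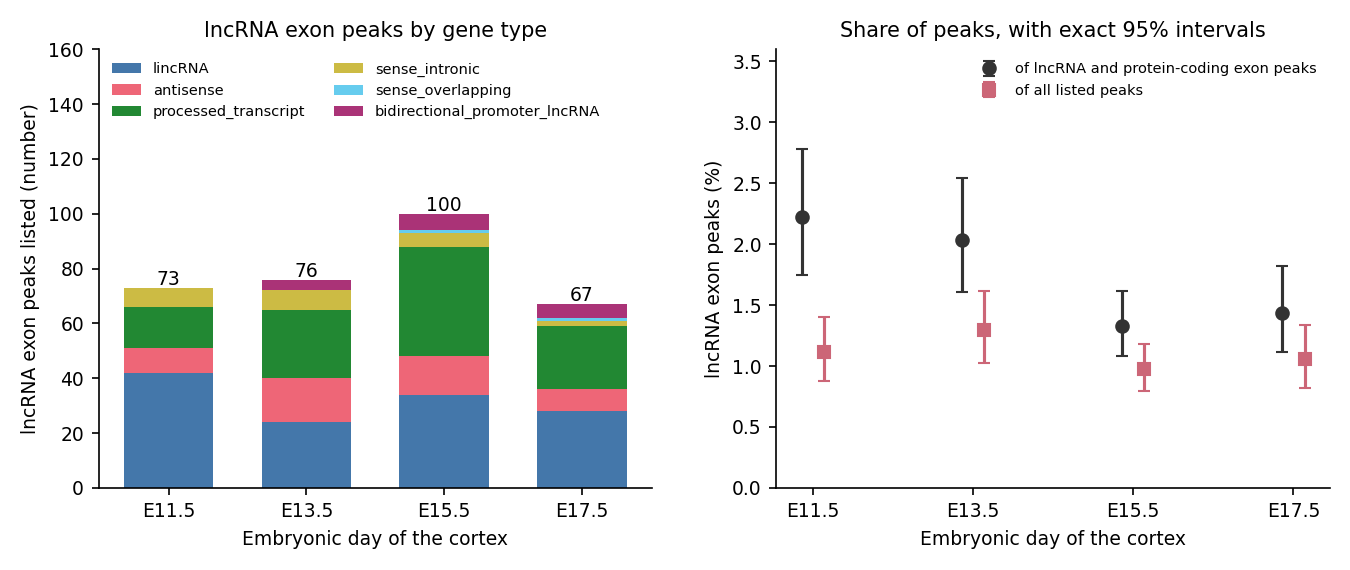
Left, number of lncRNA exon peaks on each embryonic day, stacked by GENCODE gene type. Right, the same peaks as a percentage of all listed peaks (squares) and of lncRNA plus protein-coding exon peaks (circles), with exact 95% intervals for the counting of peaks. The totals are 73, 76, 100 and 67, and the circles stand near 2% on the first 2 days and between 1.33% and 1.43% on the last 2.

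In genes, 49, 56, 74 and 47 lncRNA genes had an exon peak on the 4 days. That was 0.483%, 0.552%, 0.729% and 0.463% of annotated lncRNA genes, where 8.96%, 11.4%, 19.4% and 13.3% of annotated protein-coding genes had one. Many annotated lncRNA genes are expressed in few tissues, and how many were expressed in these cortices was not measured here. The E15.5 list was the longest: among the strongest 5871 peaks of that day, 47 lncRNA genes were left.

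By type, lincRNA genes held 128 peaks in 58 genes. The type is meant for genes apart from coding genes, yet 6 of these peaks lay over an opposite-strand coding exon and 1 within a same-strand coding gene body. Genes of the type processed_transcript held 103 peaks in 47 genes, the latter 5.95% of the 790 genes of that type, against 0.991% of lincRNA genes. Antisense genes held 47 peaks in 33 genes, sense_intronic genes 21 in 9, bidirectional_promoter_lncRNA genes 15 in 9 and sense_overlapping genes 2 in 2. LincRNA peaks made up 57.5% of the lncRNA exon peaks at E11.5 (42 of 73, 45.4% to 69.0%). Their later shares were 31.6% (24 of 76, 21.4% to 43.3%), 34% (34 of 100, 24.8% to 44.2%) and 41.8% (28 of 67, 29.8% to 54.5%), so the E11.5 interval lay above those of E13.5 and E15.5 and overlapped that of E17.5. These intervals treat peaks of 1 gene as independent, and 1700020I14Rik alone held 6 of the E11.5 lincRNA peaks. Counted as genes, lincRNAs were 24 of 49, 21 of 56, 24 of 74 and 19 of 47 on the 4 days. Peaks of processed_transcript genes made up 20.5% at E11.5 (12.0% to 31.6%) and 40% at E15.5 (30.3% to 50.3%), with intervals that overlapped. Bidirectional_promoter_lncRNA genes, which start beside a coding gene and run away from it, had 0, 4, 6 and 5 peaks.

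RefSeq classed 110 of the 158 genes as lncRNA and 34 had no RefSeq match. Another 7 genes with 10 peaks were protein-coding in RefSeq (1810058I24Rik, Cct6a, D930016D06Rik, Gm20939, Tmem134, Tmem250-ps and Trerf1), 6 genes with 15 peaks were pseudogenes, transcribed or not, and 1 was of another class. Reads of a pseudogene and of its parent gene cannot be told apart. The largest signals, a per-peak value of the authors whose scale is not stated, belonged to this group. Gm42418, which RefSeq lists as Rn18s-rs5, a copy of 18S ribosomal RNA, had a signal of 163391 at E13.5 (chr17:39847441-39847551) and 438225 at E17.5 (chr17:39847250-39847396). Its ranks by the authors' p were 4857 and 5210, far down both lists. The pseudogenes Gm10076 (4419 at E11.5) and Gm7125 (1618 at E13.5) were next in size on their days, beside H19. Those genes were named after their values were seen, as were others below that are outside the naming rule. Without the genes that RefSeq classes otherwise, the share among exon peaks was 2.04%, 1.85%, 1.21% and 1.33% on the 4 days.

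Ranks ordered all peaks of a day by the authors' p over both strands. At E11.5 the strongest lncRNA exon peak was in Mir17hg, the primary transcript of the miR-17-92 cluster, which is known for promoting proliferation (rank 18, signal 15.0, chr14:115045351-115045400). C130071C03Rik, the host of Mir9-2, followed at rank 273, then 2010204K13Rik at 411, 2700033N17Rik at 514, Mir9-3hg at 630 and Eldr at 670. Of the bases of the 2700033N17Rik peak, 8% were exonic.

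At E13.5 Gm42659, an unnamed transcript within an intron of the actin capping gene Capza1, had ranks 115, 189, 453 and 653, all with signals between 4.07 and 4.29. Gm3764, the host of Mir9-1, had rank 117 (signal 76.5), followed by Gm10544 at 353, Gm16973 at 487, C130071C03Rik at 523 and Snhg15 at 587. Rank and signal thus ordered these leading transcripts differently.

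At E15.5 C130071C03Rik led at rank 214 (signal 203), with Rian, a maternally expressed imprinted transcript, at 215 (signal 87.4). Snhg17 had rank 310, 2610307P16Rik 573, Sox1ot 921 and A730063M14Rik 1251. At E17.5 Gm16973 had rank 20 (signal 8.05) and 2900076A07Rik rank 32 (signal 25.7), followed by Gm45169 at 202, C230057M02Rik at 386, 1110020A21Rik at 1017 and the imprinted microRNA host Mirg at 1040. The rank of 20 also went with a signal below the lower quartile of 9.44 among that day's lncRNA exon peaks.

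As a group, lncRNA exon peaks stood in the middle of their lists. The median rank was at 40.1%, 55.8%, 51.6% and 52.6% of the list (0% is the strongest), where protein-coding exon peaks stood at 51.5%, 49.6%, 49.2% and 49.1%. Median signals of lncRNA exon peaks were lower than those of coding exon peaks on each day, 22.9 beside 37.2, 14.7 beside 27.4, 19.2 beside 26.3 and 18.9 beside 28.5. The quartiles overlapped broadly (14.9 to 75.6 for lncRNA exon peaks at E11.5 and 18.5 to 85.1 for coding ones).

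Most lncRNA genes were listed on a single day. Of the 158 genes, 108 (68.4%, 60.5% to 75.5%) had peaks on 1 day, 34 on 2 days, 14 on 3 days and 2 on all 4. A single day was less common among the 6474 protein-coding genes with a peak (48.0%), of which 5.89% were listed on all 4 days and 21.8% on 3 or 4, against 1.27% and 10.1% (5.90% to 15.9%) of lncRNA genes. Genes with more than 1 peak have more chances to be listed again, and 88 of the lncRNA genes had only 1 peak in all. E11.5 had the most genes of its own relative to its total, 30 of 49, followed by 34 of 74 at E15.5, 25 of 56 at E13.5 and 19 of 47 at E17.5. The same count per day was not made for coding genes, so whether this order is particular to lncRNA genes is not known. Of E11.5 coding genes, 42.7%, 61.4% and 35.8% were listed at E13.5, E15.5 and E17.5, beside 22.4%, 24.5% and 12.2% of E11.5 lncRNA genes.

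Neighbouring later days shared the most genes. E15.5 and E17.5 had 23 lncRNA genes in common, 31.1% of those at E15.5 and 48.9% of those at E17.5, and E13.5 and E15.5 also had 23, 41.1% and 31.1% of each. E11.5 and E17.5 had 6 in common, 12.2% and 12.8% of each. Among coding genes the share of E17.5 genes found at E15.5 was 62.4%, and the share of E11.5 genes found at E17.5 was 35.8%.

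Gm3764 and C130071C03Rik were the 2 genes listed on all 4 days. Those listed on 3 days with the best mean rank were Gm16973, Peg13, Rian, A730063M14Rik, 2900076A07Rik, Pantr1, 1810026B05Rik and Snhg12, and the other 6 were 4632415L05Rik, Mir124-2hg, 1600020E01Rik, A930024E05Rik, Snhg1 and Zfas1. Of these 16 genes, 8 hold a microRNA or snoRNA gene within their body, as do 12 of the 108 genes listed on 1 day and 29 of all 158. Gene length and expression were not taken into account.

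**Figure D2:**
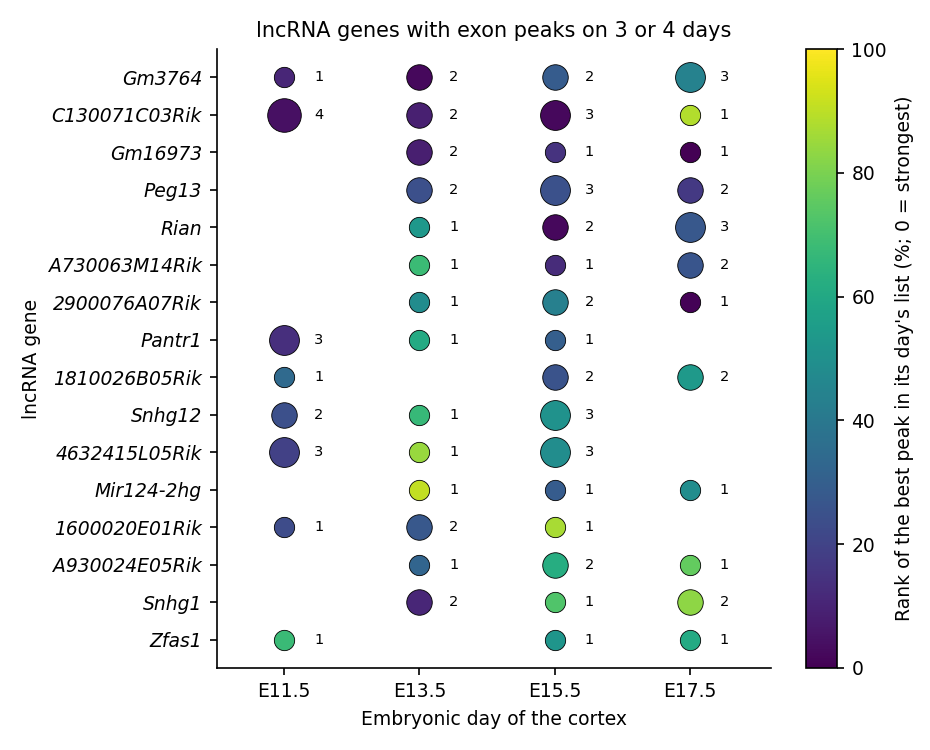
The 16 lncRNA genes with exon peaks on 3 or 4 days, by embryonic day. Circle size and the number beside it give the exon peaks of that day, and colour gives the rank of the gene's best peak as a percentage of its day's list, where 0 is the strongest. Gm3764 and C130071C03Rik have circles on all 4 days, and Gm16973 and 2900076A07Rik are darkest at E17.5.

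Peaks were concentrated in a few genes. The 35 genes with 3 or more peaks held 158 of the 316 peaks (50%), 13 genes had 5 or more, and the most was 10, in C130071C03Rik. Gm3764 had 8 peaks, Snhg17, Peg13 and 4632415L05Rik 7 each, and Rian 6. 4632415L05Rik is a transcribed pseudogene in RefSeq. Such peaks share 1 transcript and are not independent of each other.

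A peak was counted as found again when a peak of another day shared at least 1 bp with it on the same strand. This held for 15 of 73 lncRNA exon peaks at E11.5 (20.5%, 12.0% to 31.6%) and 21 of 76 at E13.5 (27.6%, 18.0% to 39.1%). Later it held for 29 of 100 (29%, 20.4% to 38.9%) and 28 of 67 (41.8%, 29.8% to 54.5%). Among protein-coding exon peaks the shares were 27.9%, 36.6%, 26.0% and 32.2%, all within those intervals. When at least 50% of both peaks had to be shared, 5.48%, 13.2%, 16.0% and 26.9% of lncRNA exon peaks were found again. At E17.5 the coding share then lay below the lncRNA interval (16.4% against 16.8% to 39.1%). The same held at E17.5 among the stronger 50% of peaks, with 40.6% of lncRNA exon peaks (23.7% to 59.4%) and 22.8% of coding ones. In that stronger part the 4 E17.5 peaks of Mirg, all within its 1 peak of E11.5, count separately. The interval treats such peaks of 1 gene as independent, which they are not, and no share with 1 peak per gene was computed.

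Merged over days, the peaks formed 261 separate positions, of which 223 were listed on 1 day, 33 on 2 days, 5 on 3 days and 0 on all 4. The 5 lay in C130071C03Rik (E11.5, E13.5 and E15.5), Gm3764 (E11.5, E15.5 and E17.5), Peg13 and A730063M14Rik (both E13.5, E15.5 and E17.5) and Pantr1 (E11.5, E13.5 and E15.5). Bases covered on each of the 3 days numbered 124 in Peg13 and 77 in A730063M14Rik, and there were none in the other 3. Among those on 2 days, Gm16973, a lincRNA, shared 17 bases between its rank 487 at E13.5 and its rank 20 at E17.5 (chr14:56697342-56697358).

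Host genes of small RNAs are spliced or cut to release them. Of the 158 genes, 29 (18.4%, 12.7% to 25.3%) held an annotated microRNA, snoRNA or scaRNA gene on their strand, against 1.77% of all 10150 annotated lncRNA genes. That base includes genes that may not be expressed in cortex, and neither expression nor gene length was taken into account. The 29 host genes carried 90 of the 316 peaks (28.5%), namely 18, 17, 30 and 25 on the 4 days. Hosts of microRNAs were 16 of the genes, with 50 peaks, and hosts of snoRNAs or scaRNAs were 15, also with 50 peaks, 2 genes being both.

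MiR-9 is a microRNA of neural progenitors that acts on regulators of proliferation and neuronal differentiation, and it is made from 3 loci in the mouse genome. All 3 host transcripts carried listed peaks, whose direction against input is not stated. Each locus gives the same mature strand, which is shown with its seed (bases 2 to 8) in capitals, from the RefSeq table for GRCm38.p6.
miR-9-5p: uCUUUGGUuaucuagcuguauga

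The Mir9-2 host C130071C03Rik had 4, 2, 3 and 1 peaks on the 4 days. Distances are from the nearer end of the hairpin. At E11.5 the peaks lay 98 bp upstream of the hairpin (rank 5567, signal 75.6) and 1368 bp (rank 273, signal 327), 1575 bp (rank 6447, signal 443) and 1977 bp downstream of it (rank 1342, signal 118). At E13.5 a peak of 49 bp stood 428 bp upstream (rank 4775, signal 82.3) and one of 502 bp stood 1312 bp downstream (chr13:83740198-83740699, rank 523, signal 248). At E15.5 all 3 were downstream, at 583 bp (rank 2088, signal 38.8), 1630 bp (rank 214, signal 203) and 1868 bp (rank 781, signal 101). Peaks within chr13:83740198-83740699 were thus listed on each of the first 3 days, and no peak covered the hairpin itself. At E17.5 the only peak was 145230 bp downstream, near the end of the longest isoform (chr13:83884116-83884164, rank 5603, signal 9.65).

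The Mir9-1 host Gm3764 had 1, 2, 2 and 3 peaks. Of these 8, 7 lay between 10260 and 14146 bp downstream of the hairpin and 1, at E15.5, lay 5900 bp upstream (rank 8708, signal 13.2). The E13.5 peak of rank 2243 (signal 272, chr3:88227462-88227598) lay inside the E17.5 peak of rank 4234 (signal 116, chr3:88227450-88227614). The stretch chr3:88229013-88229929 held peaks at E11.5 (rank 698, signal 27.6), E15.5 (rank 2956, signal 95.5) and E17.5 (rank 2804, signal 44.0). The best rank of the gene, 117 at E13.5, belonged to a peak that was not found again on another day (chr3:88228588-88228684).

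Mir9-3hg, the host of Mir9-3, had 1 peak at E11.5 (rank 630, signal 55.1, chr7:79532124-79532173) and 1 at E15.5 (rank 6546, signal 45.2, chr7:79531940-79531989). They lay 26770 and 26586 bp downstream of the hairpin, close to each other without overlap. In all 3 hosts most peaks lay 3′ of the hairpin.

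**Figure D3:**
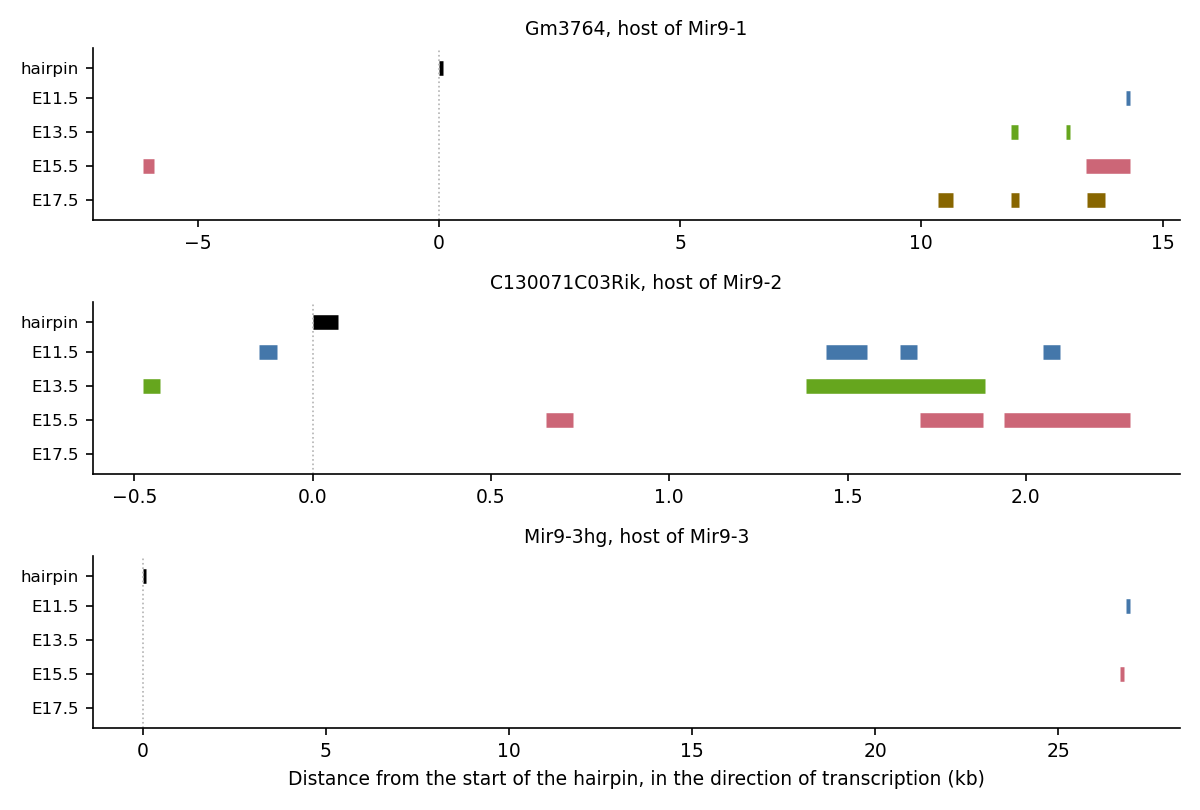
Peaks of the 3 miR-9 host transcripts by embryonic day, against distance in kb from the start of the hairpin in the direction of transcription. Bars span each peak, 0 is the hairpin start, and the E17.5 peak of C130071C03Rik, 145230 bp past the hairpin, is beyond the axis. C130071C03Rik has peaks between 1384 and 2293 bp on the first 3 days, Gm3764 has peaks between 10349 and 14331 bp on each day, and no bar covers a hairpin.

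Mir124-2hg hosts Mir124a-2, one of the genes for the neuronal microRNA miR-124. It had 1 peak on each of 3 days: at E13.5 at the 3′ end of the hairpin (chr3:17795769-17795822, rank 5321, signal 45.6), at E15.5 311 bp downstream (rank 2944, signal 36.0) and at E17.5 3623 bp downstream (rank 3075, signal 35.1). None was listed at E11.5. The hairpin ends at chr3:17795770, so the E13.5 peak only touched it and lay almost wholly past it. The Mir17hg peak was at E11.5 alone and lay 844 bp past Mir92-1, the last hairpin of its cluster.

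Hosts of the miR-99 and miR-125 families were listed on the first and the last day. 3110039I08Rik, which RefSeq names Mir100hg, had rank 2076 at E11.5 and lay 7181 bp past Mir125b-1, and Gm28119 on the same strand had rank 1767 at 190 bp past it. Mir99ahg had 2 exon peaks at E17.5 (ranks 3337 and 4377), and 20 listed peaks lay somewhere in its body, most of them outside annotated exons. C230004F18Rik, which RefSeq names Cdr1os, the transcript from which the circular RNA Cdr1as is spliced, had a pair of wide peaks at E17.5 (2898 and 1566 bp, ranks 6179 and 6310), of which 2.62% and 0.192% of the bases were exonic. In all, 33 of the 42 peaks whose nearest small RNA was a microRNA lay downstream of it, 7 upstream and 2 over it. The 42 peaks came from 15 genes and are not independent, with 10 in C130071C03Rik, 8 in Gm3764 and 5 in Mirg. How much exon each host has on either side was not taken into account.

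Host genes of snoRNAs are spliced transcripts whose introns release the snoRNAs that guide modification of ribosomal RNA. By GENCODE symbol, 8 of 17 had an exon peak: Snhg1, Snhg5, Snhg12, Snhg15, Snhg17, Gas5, Zfas1 and Epb41l4aos, with 27 peaks. 1810032O08Rik, Snhg16 in RefSeq, had another 4. Beside these hosts, which were chosen with earlier results of these data known, 1.56% of all annotated lncRNA genes had an exon peak. Snhg3, Snhg6, Snhg8, Snhg9, Snhg14, Snhg18, Snhg20 and Dancr had none on any day, and Snhg10 had 2 listed peaks in its body and 0 on an exon.

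Snhg17 had 3 peaks at E13.5 and 4 at E15.5. Its widest peak of E13.5 was chr2:158356009-158359197 (rank 4040, signal 28.7). More than 1 peak of E15.5 overlapped it, and the best-ranked of these was chr2:158356984-158359279 (rank 310, signal 42.2). All of these overlapping peaks lay over snoRNA genes. Snhg1 had the same position listed at E13.5 (rank 637, signal 117, chr19:8724165-8724425) and E17.5 (rank 5617, signal 82.0, chr19:8724164-8724424), with 260 bases in common. That position lies over the snoRNA gene Gm25894. Snhg12 had 2 peaks at E11.5, 1 at E13.5 and 3 at E15.5, with the best rank of 1592. None of the 3 genes was listed on all days: Snhg17 lacked E11.5 and E17.5, Snhg1 lacked E11.5 and Snhg12 lacked E17.5.

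Gas5 had a peak of 814 bp at E11.5 (rank 2478, signal 1227) and another of 715 bp at E15.5 (rank 8960, signal 443), both over snoRNA genes. Zfas1 had 1 peak on each day but E13.5, with ranks 4414, 5336 and 3852 in order, and the last 2 shared 54 bases. AA465934, host of Snord7, had the signals 278 at E13.5 and 466 at E17.5 at one position, with 54 bases in common. Of the 48 peaks whose nearest small RNA was a snoRNA or scaRNA, 18 lay over it, 16 upstream and 14 downstream. Where a peak lies over a snoRNA gene, reads of the host and of the snoRNA cannot be told apart. Over all hosts, 20 lncRNA exon peaks (6.33%) shared bases with a small RNA gene, beside 0.217% of coding exon peaks.

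Imprinted lncRNAs are expressed from 1 parental allele, and several lie in the Dlk1-Dio3 domain of chromosome 12. Of 9 such genes of an lncRNA type, 4 had exon peaks: Rian, Mirg, Peg13 and H19, with 20 peaks. Of all 10150 annotated lncRNA genes 1.56% had one, a base that includes genes that may not be expressed in cortex. The 9 genes were chosen with earlier results of these data known. Meg3, Kcnq1ot1, Airn and Snhg14 had no listed peak anywhere in their bodies. Nespas had 1 in its body and 0 on an exon. Rian had 0, 1, 2 and 3 peaks on the 4 days. One stretch was listed at E15.5 (chr12:109654294-109654430, rank 215, signal 87.4) and at E17.5 (rank 2125, signal 234), with 93 bases in common, and chr12:109661238-109661394 was listed on the same days (ranks 9607 and 5126, 98 bases in common). Mirg had a single peak of 919 bp at E11.5 (chr12:109748286-109749204, rank 2429, signal 20.1) and 4 short ones inside the same stretch at E17.5 (ranks 1040, 2277, 2278 and 2279, each with a signal of 9.23). All of them were 325 to 900 bp past Mir3072, the last hairpin of that host.

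Peg13 is transcribed within an intron of Trappc9, on the same strand, and is paternally expressed in brain. It was listed at E13.5 (ranks 1443 and 2180, signals 33.0 and 26.0), E15.5 (ranks 2532, 7201 and 7882, signals 35.2, 73.6 and 41.0) and E17.5 (ranks 1058 and 2300, signals 70.1 and 82.7). All 7 peaks lay in the last part of the transcript, between 83.2% and 93.1% of its length. H19, a growth-restraining transcript that is abundant in embryonic mesoderm and endoderm, had 2 peaks at E11.5 and none later. Their signals of 4681 (rank 814, chr7:142575924-142576252) and 1516 (rank 2985) were the highest of that day's lncRNA exon peaks and the next after Gm10076. Of 6 vessel and meninges markers, 1, 5, 2 and 0 had a coding exon peak on the 4 days, and their part in the H19 peaks was not tested.

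Of the 5 X-linked genes for X inactivation, Xist, the RNA that coats the inactive X chromosome, had 2 peaks at E11.5 (ranks 1471 and 2163, signals 10.0 and 12.5) and 0 on later days. Ftx, a transcript of the X inactivation centre, had 1 at E15.5 (rank 10013, signal 5.94). Tsix, Jpx and Firre had no exon peak. The share of all annotated lncRNA genes with an exon peak was 1.56%. The abundant nuclear RNAs Malat1, Neat1 and Miat had no listed peak anywhere in their gene bodies on any day.

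Of 18 lncRNA genes known from neural development, 3 had exon peaks by GENCODE symbol: Pantr1, Sox1ot and Peg13. Among all annotated lncRNA genes the share was 1.56%, and the 18 were chosen with earlier results of these data known. Pantr1, a brain lncRNA next to the transcription factor gene Pou3f3, had 3 peaks at E11.5 (ranks 887, 1919 and 2027), 1 at E13.5 (rank 3556, signal 372) and 1 at E15.5 (rank 3083, signal 352). A peak of 15128 bp at E11.5 and one of 15360 bp at E15.5 spanned its introns, with 2.39% and 3.87% of their bases exonic. Sox1ot, which overlaps the progenitor gene Sox1, had 1 peak at E15.5 (rank 921, signal 8.84). Rmst had 5 listed peaks in its body and 0 on an exon, and Sox2ot, Dlx6os1, Six3os1, Emx2os and Crnde had none in either.

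A member of the same set is annotated as 1700020I14Rik and named Oip5os1 in RefSeq. It is a conserved lncRNA known for a highly complementary site for miR-7. It had 6 peaks at E11.5, the most of any lncRNA gene on that day, and 0 on the later days. Their ranks ran from 2617 to 6359 and their signals were 76.7, 108, 116, 147, 379 and 645. They were spread from 10.6% to 87.1% of the transcript, so no single stretch carried them.

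Other recurring transcripts lie beside or across coding genes. A730063M14Rik lies downstream of the cell cycle kinase gene Cdk4 on its strand, with its first peak 2574 bp past the end of Cdk4. It was listed at E13.5 (rank 4011, signal 91.7), E15.5 (rank 1251, signal 101) and E17.5 (ranks 1671 and 5819, signals 43.2 and 91.7). In all, 12 lncRNA exon peaks lay within 5000 bp downstream of a coding gene on their strand, and reads that run on from that gene cannot be told apart from reads of the lncRNA. 1810026B05Rik, RefSeq Chaserr, a regulator of the neighbouring chromatin gene Chd2, had 1, 0, 2 and 2 peaks on the 4 days. Its peaks of 5666 bp at E15.5 and 5664 bp at E17.5 had almost the same ends, with 5662 bases in common and ranks of 8148 and 3400. The exonic share of these was 4.66% and 4.63%, so they covered mainly intron.

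Sense_intronic lncRNAs share their strand with a coding gene, and 28 lncRNA exon peaks lay within such a gene's body. They were 8 (11%), 9 (11.8%), 9 (9%) and 2 (2.99%, 0.364% to 10.4%) on the 4 days. The 2 at E17.5 were both in Peg13. Reads of the lncRNA and of the unspliced coding transcript cannot be told apart there. The 4 Gm42659 peaks in Capza1, all at E13.5, had midpoints from 6.67% to 65.5% of the annotated transcript.

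Across strands, 25 lncRNA exon peaks lay over an exon of a coding gene on the opposite strand. They were 2 of 73 at E11.5 (2.74%, 0.334% to 9.55%) and 11 of 76 at E13.5 (14.5%, 7.45% to 24.4%), then 8 of 100 (8%, 3.52% to 15.2%) and 4 of 67 (5.97%, 1.65% to 14.6%). Coding exon peaks lay over another coding exon of the opposite strand in 1.49%, 2.00%, 2.50% and 3.17% of cases, below the lncRNA interval at E13.5 and E15.5 and within it on the other days. Without peaks over 5000 bp, the E15.5 lncRNA share was 6.32% (6 of 95, 2.35% to 13.2%), an interval that held the coding share of 2.50%. The intervals also treat peaks of 1 gene as independent, such as those of Gm26672 over Pcdhga11 at E13.5. Antisense genes are annotated for lying across from a coding gene, over its exons or its introns, and 11 of their 47 peaks lay over such an exon. What part the annotation has in these shares was not tested. Of the 25, 11 were in antisense genes, 8 in processed_transcript genes and 6 in lincRNA genes. They included Sp3os over Sp3 (rank 1893 at E13.5), Gm26735 over the neural gene Sox4 (rank 2391 at E15.5), Gm16536 over Bace1 (rank 1301 at E15.5) and 1700008J07Rik over Srcap at E11.5 and E13.5. Only 3.37% of the bases of the Gm26735 peak were exonic, the rest lying past the annotated end of that gene. Gm16973 lay over Mphosph8 on both of its leading days. A peak on the opposite strand was listed on the same day for 0, 0, 4 and 1 lncRNA exon peaks.

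The printed sequences came from a subset of peaks that lay wholly in an exon and were at most 300 bp long, 238 of the 316. Their median GC content was 45.2% (n = 56), 50.5% (n = 62), 46.7% (n = 72) and 47.4% (n = 48) on the 4 days. Coding exon peaks had medians of 49.4%, 50%, 50% and 51.7%. The 95% intervals of the lncRNA medians lay below the coding median at E11.5 (41.7% to 47.1%) and at E15.5 (42.7% to 49.4%), and held it at E13.5 (48.0% to 55.7%) and on the last day (42.9% to 51.8%). With the exonic stretches of peaks at least 50% in exons, the E15.5 interval reached 50%. Their median folding energy per base was -0.158, -0.198, -0.178 and -0.192 kcal/mol, beside -0.187, -0.196, -0.204 and -0.210 for coding exon peaks. By this measure the E15.5 interval of the lncRNA median (-0.189 to -0.144) held weaker folding than the coding median, and the intervals of the other days held the coding median. Individual peaks ranged widely, from 0 kcal/mol for the 49-base peak of C130071C03Rik at E11.5 to -0.436 per base in 0610009L18Rik at E17.5, whose 50 bases had a GC content of 82%. The Mirg peak of rank 1040 at E17.5 reached -45.4 kcal/mol over 114 bases.

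Widths were close to those of coding exon peaks, with medians of 69 bp, 77 bp, 82.5 bp and 83 bp on the 4 days beside 89, 87, 87 and 93 bp. All but 7 lncRNA exon peaks were at most 5000 bp wide. The widest, of 104838 bp at E15.5, was counted for Gm21980 with 0.136% of its bases exonic. In all, 253 of the 316 peaks (80.1%, 75.2% to 84.3%) lay wholly within annotated exons, beside 79.6% of coding exon peaks.

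Along the transcript, lncRNA exon peaks had median midpoints at 58.9%, 54.0%, 61.8% and 60.3% of the length. Those of coding exon peaks were 53.3%, 68.3%, 69.6% and 76.3%. When transcripts were split into 3 equal parts, the 3′ part held 38.3% (26.1% to 51.8%), 37.9% (26.2% to 50.7%), 45.5% (34.1% to 57.2%) and 44% (30% to 58.7%) of lncRNA exon peaks. For coding exon peaks these shares were 35%, 51.9%, 53.6% and 62.8%, and those of E13.5 and E17.5 lay above the lncRNA interval.

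**Figure D4:**
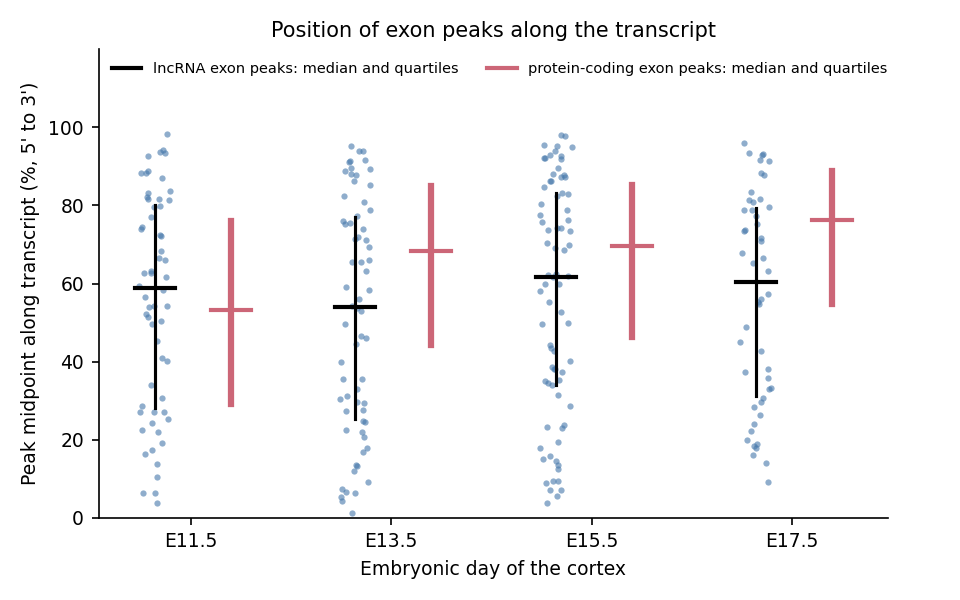
Midpoint of each lncRNA exon peak along its transcript, from 0% at the 5′ end to 100% at the 3′ end, by embryonic day, for peaks wholly within exons. Points are single peaks, black bars give their median and quartiles, and red bars give the same for coding exon peaks. The lncRNA medians stay between 54.0% and 61.8%, while the coding medians go from 53.3% at E11.5 to 76.3% at E17.5.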

How the data were processed

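Values were taken from 8 peak lists that the authors deposited, 1 per embryonic day and strand, each made from 3 STAU2 RIP and 3 input libraries. Coordinates are in mm10, per the labels, and are given 1-based. Cufflinks 2.2.1, bedtools 2.17.0, TopHat and TopHat2 2.0.9 appear in the submitters' processing notes. For the peak caller, its test and the test's direction, the sources used here give nothing, so a listed peak may differ from input in either direction. Per peak, the authors deposited a score, a signal on an unstated scale, a p-value and a q-value below 0.01, and all are their own. The score was not used, the signal was used to describe peaks, and the p-value to rank them within a day over both strands. The number of candidate regions was recovered from p, q and rank.

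Gene models and sequences were GENCODE vM21 (GRCm38). A peak over several genes was counted for the gene with the most shared exonic bases. Gene classes and mature microRNAs came from RefSeq (GRCm38.p6), by Ensembl ID, symbol or synonym. Of peaks over exactly 1 gene, 94.1% to 97.4% lay on the strand of their list. Peaks of at most 300 bp within an exon were folded with RNAfold 2.7.2. Intervals of shares are exact (Clopper-Pearson, 95%), and those of medians come from binomial order statistics. The assignment was tested on simulated data. Python 3.11.15, pandas 2.3.3 and scipy 1.17.1 were used.

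Genes named were the 6 best-ranked of each day, the 10 on most days, the 6 with most peaks, and members of the imprinted, X-linked, nuclear, host and neural lists with a peak. The members, lists and markers were chosen with earlier results of these data known. Alternatives were stricter overlaps, stronger or equal-length lists, no wide peaks, 1 peak per gene, and no peaks in coding gene bodies. Leaving out genes that RefSeq classes otherwise was added after seeing the data.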

Additional observations from a re-analysis of the deposited data

How the results depend on the processing

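Of 104 combinations of a result and an alternative setting, 93 stayed within the 95% interval of the reported share or median, or within 1.5 times the reported count, and 11 moved further. With 1 peak per gene, the share of lncRNA among exon peaks at E15.5 was 1.71%. With the stronger 50% of peaks, lncRNA genes numbered 28, 42 and 25 on the 3 later days, and the peaks found again on another day came to 14.3% at E13.5 and 19.1% at E15.5. With lists of equal length, 47 lncRNA genes were left at E15.5. When peaks of different days had to share at least 50% of both, 5.48%, 13.2%, 16.0% and 26.9% were found again on the 4 days. The first 3 settings keep fewer peaks by construction, and the last asks for more overlap of the same peaks. Under the same overlap, coding exon peaks were found again in 12.5%, 18.0%, 12.3% and 16.4% of cases.

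No paired analysis was possible because the lists hold no column per replicate, and for the same reason no replicate could be left out. Depth is unknown. The number of peaks, between 67 and 100 a day, sets the width of every interval, and peaks of 1 gene are not independent. For GC content and folding, the alternative used the exonic stretch of peaks that were at least 50% exonic.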
